A study of Homo sapiens with 6 samples.

Results

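This account covers 33 genes of the cell death machinery, the BCL-2 family, caspases, mitochondrial death factors and death adaptors, in a colorectal cancer line exposed to the peptide SAH-BCL9B. The list groups genes by their role and uses no measured value as a rule, though it was drawn up with earlier results of these data known. Of the 33, 32 were measured, by 93 probe sets that each name a single gene, out of 19775 genes and 41091 such probe sets in all. RIPK1, a death adaptor kinase on the list, was not analysed here. DLD1 is an established human line from a colorectal adenocarcinoma that carries truncated APC, and all 6 samples are DLD1 cells. The 3 vehicle cultures received DMSO and the 3 treated cultures received 10 µM SAH-BCL9B, each for 12 h, and RNA from each was hybridised to an Affymetrix Human Genome U133 Plus 2.0 array. SAH-BCL9B is a hydrocarbon-stapled helical peptide modelled on the part of BCL9 that binds beta-catenin, and the question the design addresses is which transcripts change when that complex is targeted. The series has a single line, dose and time, and no control peptide.

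BCL9 is a coactivator of beta-catenin and, despite its name, is not a member of the BCL-2 family. BCL-2 family proteins decide whether the mitochondrial outer membrane stays intact: pro-survival members such as BCL-2, BCL-XL and MCL-1 hold the pore-forming effectors BAX and BAK in check, and BH3-only proteins relieve that restraint. Once the membrane opens, cytochrome c and APAF-1 form the apoptosome, which activates caspase-9, while ligand-bound death receptors activate caspase-8 through the adaptors FADD and TRADD. Much of this control is exerted by protein binding and cleavage, which transcript levels do not record.

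The values are log2 expression levels, with array medians of 6.58 to 6.62. All 10 colon epithelial markers checked lay above the array median in every vehicle array, as did 0 of 5 leukocyte, 2 of 6 fibroblast and 1 of 4 endothelial markers. Of the epithelial markers, the keratin gene KRT8 rose (0.50, limma adjusted p = 0.0113) and the cadherin gene CDH17 fell (-0.55, adjusted p = 0.00806), and no marker of the other cell types passed. SAH-BCL9B array 2 stood apart: its mean correlation with the other treated arrays was 0.990, against 0.993 to 0.996 for the rest within their groups. Its 3' minus 5' difference for the actin gene ACTB, a measure of RNA integrity and labelling, was 0.74 against 1.20 to 1.38. It thus had the smallest excess of 3' over 5' signal for ACTB, not the largest. The same difference for the gene GAPDH was 0.14, within the 0.09 to 0.17 of the other arrays. As the ACTB difference mostly sets SAH-BCL9B 2 apart, a fit with it as a covariate is close to leaving that array out. SAH-BCL9B 2 was the treated array farthest from its group's median in 15 of the 32 genes, against 5 for SAH-BCL9B 1 and 12 for SAH-BCL9B 3. Among the vehicle arrays the highest such count was 13, for vehicle 3. The labels call the cultures triplicates without saying how they were set up, so p-values measure the spread between these cultures, and the number of arrays limits the precision.

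None of the 32 genes passed the test over all genes (limma, Benjamini-Hochberg adjusted p under 0.05), where each gene was read from its brightest single-gene probe set. Of all genes, 6.93% passed, 3.49% higher and 3.43% lower after SAH-BCL9B. At an unadjusted p under 0.05 there were 8 of 32 (25%, against 21.4% of all genes), 6 higher and 2 lower. The changes ran from -0.27 for BCL2L1 to 0.23 for FADD on the log2 scale, with a median of 0.05, beside 0.02 over all genes, and 22 of the 32 were positive (68.8%, against 55.1%). All 32 had a 95% interval that lay within a 1.5-fold change in either direction, as did 87.2% of all genes; the lowest bound was -0.49 and the highest 0.47. At probe set level 82 of the 93 intervals lay within 1.5-fold (88.2%, against 82.9% of all single-gene probe sets). Their bounds ran from -1.21 to 0.86. The bound of 1.5-fold thus holds for the brightest probe set of each gene and not for every probe set. All these intervals are for single genes or probe sets and not adjusted for their number. With vehicle 3 and SAH-BCL9B 2 left out, the interval of 31 of the 32 still lay within 1.5-fold, and no gene passed.

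**Figure D1:**
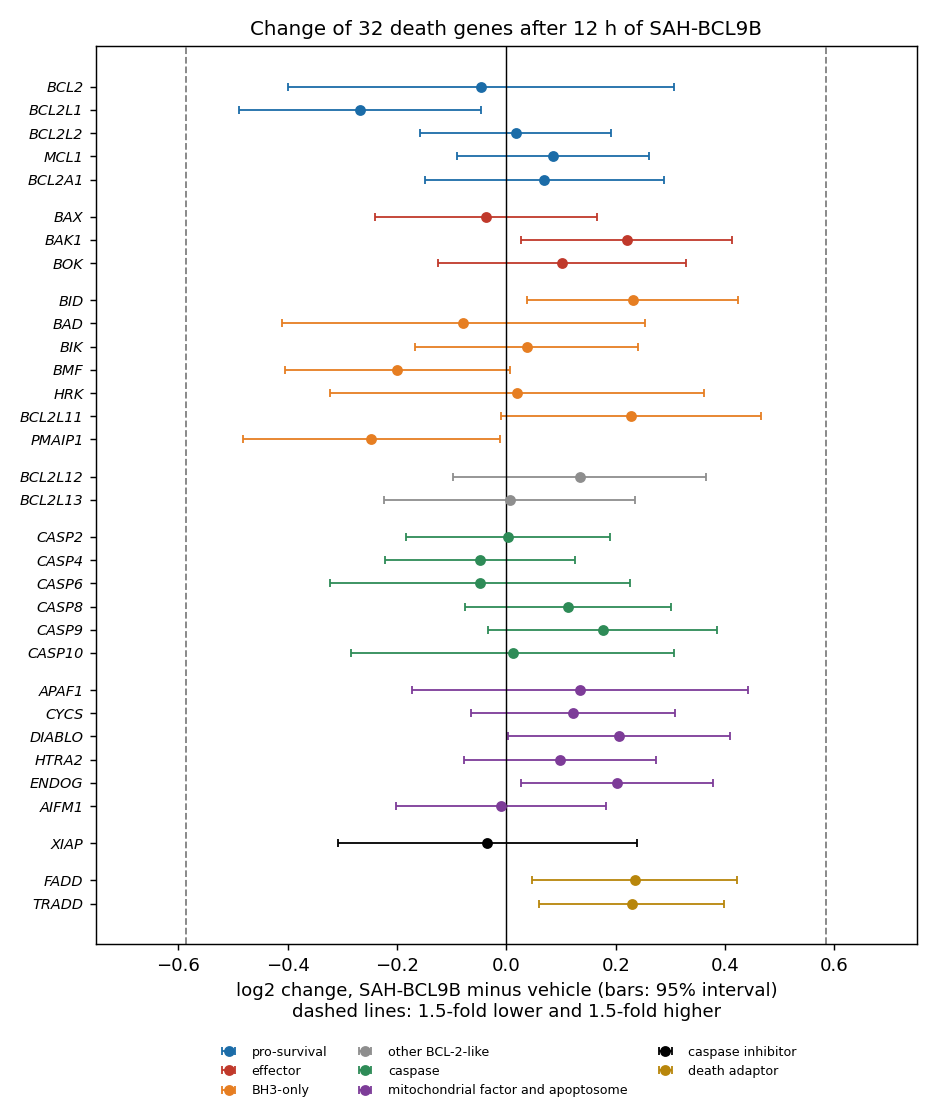
Log2 change (SAH-BCL9B minus vehicle, 3 arrays each) of the 32 genes, grouped and coloured by role, with points for the estimate and bars for limma's 95% interval. Every bar lies between the dashed lines, which mark a 1.5-fold fall and a 1.5-fold rise, and the points run from -0.27 for BCL2L1 to 0.23 for FADD.

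The 5 pro-survival genes had a median change of 0.02. BCL2L1, which encodes BCL-XL, had log2 levels of 10.45, 10.49 and 10.26 in vehicle arrays 1 to 3 and 10.00, 10.22 and 10.17 in SAH-BCL9B arrays 1 to 3. All treated arrays lay below all vehicle arrays, though the closest pair differed by less than the spread within a group, and the change of -0.27 ± 0.10 (SE) did not pass (limma adjusted p = 0.152). All 4 of its probe sets had a negative change, from -0.27 to -0.003, the last being close to none. In 3 of them the groups did not overlap (10.5% of all probe sets had all treated arrays below). Averaging the 4 gave the gene a change of -0.17 (limma adjusted p = 0.262). With array weights the gene passed (-0.32, limma adjusted p = 0.0485, range over the alternatives 0.0485 to 0.383). MCL1, whose protein is short-lived and guards many epithelial cells, read 12.58, 12.72 and 12.71 in vehicle arrays 1 to 3 and 12.77, 12.76 and 12.75 in SAH-BCL9B arrays 1 to 3. The treated arrays were all higher by a narrow margin, vehicle 1 being the lowest, with a change of 0.09 ± 0.08 (adjusted p = 0.612). All 6 probe sets of MCL1 had a positive change, from 0.09 to 0.45. The largest belonged to probe set 214056_at, at 7.24, 7.62 and 7.67 in vehicle arrays 1 to 3 and 8.14, 7.76 and 7.97 in SAH-BCL9B arrays 1 to 3. These groups did not overlap, and among all probe sets the adjusted p was 0.154, or 0.0485 with array weights (range over the alternatives 0.0485 to 0.400).

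BCL2, the founding member of the family, read 7.16, 7.11 and 7.29 in vehicle arrays 1 to 3 and 6.80, 7.44 and 7.17 in SAH-BCL9B arrays 1 to 3. The treated arrays lay on both sides of the vehicle arrays, and the change was -0.05 ± 0.15 (limma adjusted p = 0.923). Only 1 of its 4 probe sets was above the array median in all vehicle arrays. BCL2L2, which encodes BCL-W, had a change of 0.02 ± 0.08 from a vehicle mean of 10.20 (SD 0.02, n = 3). BCL2A1, best known in blood cells, was near the bottom of the scale, at 3.83 in vehicle and 3.90 in treated cells. With HRK it was 1 of the 2 genes not above the array median, the other 30 being above it in all 3 vehicle arrays. That count rests on the brightest probe set of each gene. Of all 93 probe sets, 65 were above the array median in all 3 vehicle arrays and 28 were not. Levels of different probe sets depend on how well each hybridises, and no order between genes is read from them.

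The 3 effectors had a median change of 0.10. BAX read 9.55, 9.39 and 9.34 in vehicle arrays 1 to 3 and 9.46, 9.31 and 9.40 in SAH-BCL9B arrays 1 to 3. The groups overlapped, with a change of -0.04 ± 0.09 (95% interval -0.24 to 0.17, limma adjusted p = 0.881), and its second probe set gave -0.02. BAK1 read 7.77, 7.97 and 7.78 in vehicle arrays 1 to 3 and 8.09, 8.08 and 8.02 in SAH-BCL9B arrays 1 to 3. Every treated array was above every vehicle array, and the change of 0.22 ± 0.08 did not pass (adjusted p = 0.175, range 0.0827 to 0.457 over the alternatives). BOK, a less studied relative of these effectors, had a value of 0.10 ± 0.10, and both of its probe sets were positive.

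**Figure D2:**
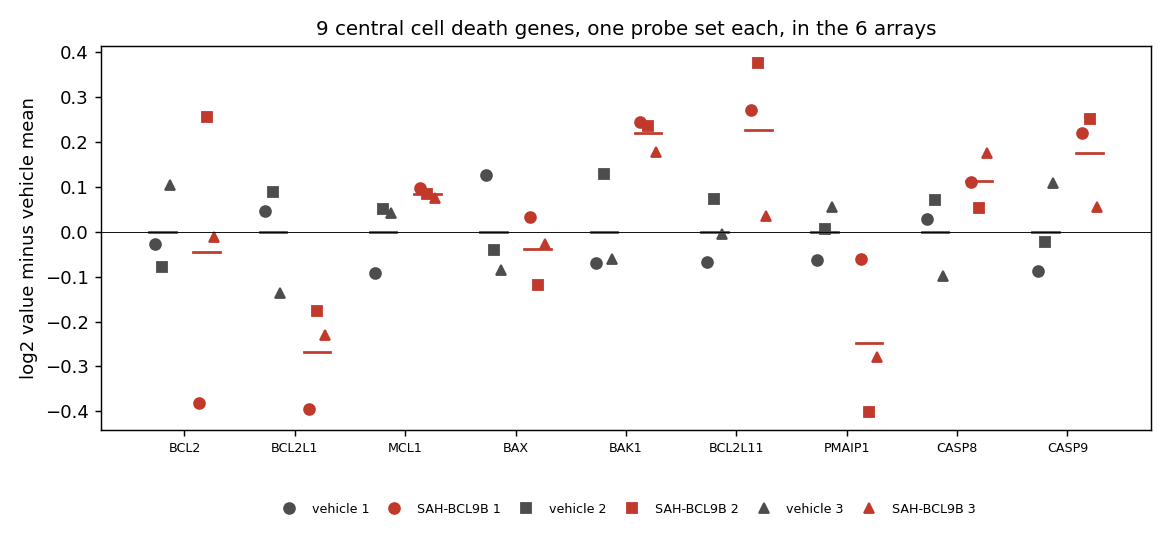
Log2 value minus the gene's vehicle mean in each of the 6 arrays for 9 genes, read from 1 probe set each; grey symbols are vehicle and red are SAH-BCL9B arrays, symbol shape gives the replicate number and horizontal bars the group means. BCL2, BAX, BCL2L11, PMAIP1, CASP8 and CASP9 overlap between the groups, while BCL2L1 lies lower and MCL1 and BAK1 lie higher in all treated arrays.

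Among the 7 BH3-only genes the median change was 0.02, with 4 positive and 3 negative. BCL2L11, which encodes BIM, a BH3-only protein that binds all the pro-survival members, gave different values by probe set. Its brightest one, 225606_at, which stands for the gene in the test over all genes, read 9.94, 10.08 and 10.00 in vehicle arrays 1 to 3 and 10.28, 10.38 and 10.04 in SAH-BCL9B arrays 1 to 3. SAH-BCL9B array 3 fell within the vehicle range, and the change was 0.23 ± 0.10 (SE, limma adjusted p = 0.254, range 0.0549 to 0.537 over the alternatives). Probe set 1555372_at read 9.12, 9.03 and 9.09 in vehicle arrays 1 to 3 and 9.78, 9.72 and 9.63 in SAH-BCL9B arrays 1 to 3. Here every treated array lay above every vehicle array by more than the spread within either group, and the change of 0.63 ± 0.08 (1.55-fold, 95% interval 0.44 to 0.82) passed among all 41091 probe sets (adjusted p = 0.0119).

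Of the 93 probe sets of the 32 genes it alone passed (1.08%, against 3.78% of all single-gene probe sets, 1.72% in the higher direction). The call held in 9 of the 14 alternatives that tested probe sets. It was lost when SAH-BCL9B 1 or 3, or vehicle 1 or 2, was left out (limma adjusted p from 0.0537 to 0.0695), the range over all alternatives being 0.00155 to 0.0695. With the replicate number as a block its adjusted p was 0.065. All 7 probe sets of BCL2L11 had a positive change, from 0.17 to 0.63. In 4 of the 7 the treated arrays lay above all vehicle arrays (13.6% of all probe sets did). Probe set 222343_at had a change of 0.47 ± 0.17, with vehicle values spread from 6.52 to 7.23, and 1558143_a_at and 1553096_s_at each gave 0.27. Probe sets of a gene read the same RNA samples and are not replicates. Averaged, they gave the gene a change of 0.34 (adjusted p = 0.0549). The gene makes several transcripts by alternative splicing, and which of them each probe set reads was not analysed here.

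**Figure D3:**
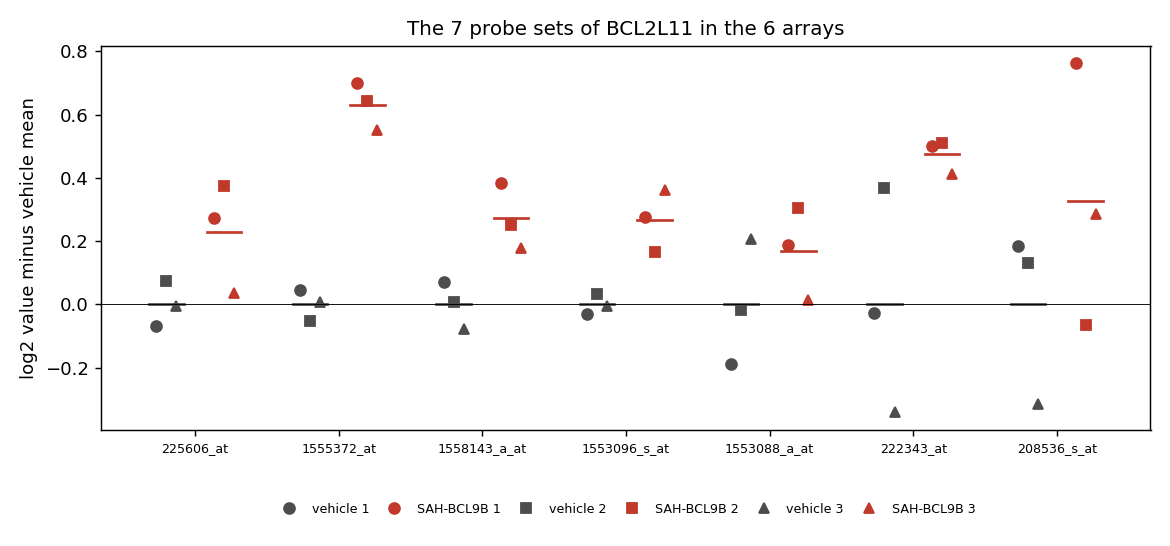
Log2 value minus the vehicle mean of each of the 7 probe sets of BCL2L11 in the 6 arrays, grey for vehicle and red for SAH-BCL9B, with bars for group means. All 7 red bars lie above the grey ones, from 0.17 to 0.63, and 1555372_at shows the widest gap with no overlap.

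The promoter of BCL2L11 is shown because that gene alone had a probe set past the threshold, and the promoter of BAK1 as an example of the 5 genes with the binding motif of TCF/LEF, the DNA-binding partners of beta-catenin. BAK1 was picked after its values were seen. Both are the 250 bases before the RefSeq start, printed 5′ to 3′ on the gene's strand from RefSeq's GRCh38.p14 table, with motif matches in capitals. The window of BCL2L11 is chr2:111120664-111120913 on the plus strand, and its capitals mark GTAAACA, the motif of FOXO factors, 223 bases before the start. The window of BAK1 is chr6:33580277-33580526 on the minus strand, and its capitals mark CTTTGAT read on the opposite strand, 168 bases before the start.
BCL2L11: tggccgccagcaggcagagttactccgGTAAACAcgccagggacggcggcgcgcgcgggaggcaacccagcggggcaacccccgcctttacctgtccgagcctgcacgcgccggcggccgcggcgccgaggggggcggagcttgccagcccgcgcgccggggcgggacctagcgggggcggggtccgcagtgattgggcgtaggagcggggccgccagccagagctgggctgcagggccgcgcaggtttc
BAK1: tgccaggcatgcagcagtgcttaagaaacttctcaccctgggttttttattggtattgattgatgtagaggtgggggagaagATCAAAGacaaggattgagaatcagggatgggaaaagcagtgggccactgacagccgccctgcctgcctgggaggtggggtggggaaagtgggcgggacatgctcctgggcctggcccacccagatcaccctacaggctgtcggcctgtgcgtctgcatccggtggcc

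Promoters were found for 27 of the 32 genes, with 47 start sites. The TCF/LEF motif, searched as CTTTGAA or CTTTGAT or CTTTGTA or CTTTGTT on both strands, was in 6 of the 47 windows (12.8%), against 12% of all 35116 promoters in the table. Those 6 belonged to AIFM1, BAK1, BID, CASP2 and XIAP, and the BID windows among them shared 1 match. Besides BAK1 (0.22) and BID (0.23), the changes of these genes were -0.01 for AIFM1, 0.00 for CASP2 and -0.03 for XIAP, and none of the 5 passed. The FOXO motif was in 1 of the 47, that of BCL2L11 (2.13%, against 2.98%). A match is only a run of letters and was not tested for binding.

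PMAIP1 encodes NOXA, a BH3-only protein that binds MCL-1. It read 12.01, 12.08 and 12.13 in vehicle arrays 1 to 3 and 12.01, 11.67 and 11.79 in SAH-BCL9B arrays 1 to 3, so that 2 treated arrays lay below all vehicle arrays and SAH-BCL9B 1 among them. The change of -0.25 ± 0.10 did not pass (limma adjusted p = 0.211). Its second probe set read 11.22, 11.42 and 11.19 in vehicle arrays 1 to 3 and 11.06, 10.61 and 11.03 in SAH-BCL9B arrays 1 to 3. There the groups did not overlap, with a change of -0.38 ± 0.14 (adjusted p = 0.204). In both probe sets SAH-BCL9B 2, the array that stood apart, was the lowest. BID, which caspase-8 cleaves to link death receptors to mitochondria, read 10.30, 10.27 and 10.36 in vehicle arrays 1 to 3 and 10.45, 10.66 and 10.52 in SAH-BCL9B arrays 1 to 3. All treated arrays were higher, with a change of 0.23 ± 0.08 (adjusted p = 0.154), and its 3 probe sets were all positive, from 0.14 to 0.23. BMF, a BH3-only protein tied to loss of attachment, had a negative value of -0.20 ± 0.09 with no overlap (adjusted p = 0.247).

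The other BH3-only genes had values nearer 0. BIK, with a vehicle mean of 12.42, gave 0.04 ± 0.09, and BAD gave -0.08 ± 0.14. The probe sets of BAD disagreed in sign: the other two gave 0.19 each, with all treated arrays above all vehicle arrays. HRK, known mainly from neurons, gave 0.02 ± 0.15, and none of its 5 probe sets was above the array median. BCL2L12 and BCL2L13, more distant relatives of the family, gave 0.13 ± 0.10 and 0.01 ± 0.10.

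The 6 caspases had a median change of 0.01, and none of them reached an unadjusted p under 0.05 in limma, against 21.4% of all genes. CASP8, the initiator at death receptors, read 10.75, 10.79 and 10.62 in vehicle arrays 1 to 3 and 10.83, 10.78 and 10.90 in SAH-BCL9B arrays 1 to 3. The groups overlapped and the change was 0.11 ± 0.08 (limma adjusted p = 0.508), while its other two probe sets were slightly negative. CASP9, the initiator at the apoptosome, read 10.32, 10.38 and 10.52 in vehicle arrays 1 to 3 and 10.63, 10.66 and 10.46 in SAH-BCL9B arrays 1 to 3. SAH-BCL9B 3 lay below vehicle 3, and the change of 0.18 ± 0.09 was the largest of the class (adjusted p = 0.323). CASP2, an initiator caspase, gave 0.00 ± 0.08, and CASP10, a relative of CASP8, 0.01 ± 0.13. CASP4, an inflammatory caspase, and the executioner CASP6 gave -0.05 ± 0.08 and -0.05 ± 0.12.

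The 6 genes of mitochondrial factors and the apoptosome had a median change of 0.13, with 5 of 6 positive. DIABLO, whose product neutralises caspase inhibitors, read 11.55, 11.73 and 11.58 in vehicle arrays 1 to 3 and 11.75, 11.93 and 11.79 in SAH-BCL9B arrays 1 to 3. The treated arrays were all higher, narrowly so for vehicle 2 and SAH-BCL9B 1, with a change of 0.21 ± 0.09 (limma adjusted p = 0.228). ENDOG, a mitochondrial nuclease, had vehicle values of 9.10 to 9.13 and treated values of 9.23 to 9.37, a change of 0.20 ± 0.08 (adjusted p = 0.168). The protease HTRA2 gave 0.10 ± 0.08 and the flavoprotein AIFM1 -0.01 ± 0.08. APAF1, the apoptosome scaffold, read 10.10, 10.06 and 9.90 in vehicle arrays 1 to 3 and 10.35, 9.86 and 10.26 in SAH-BCL9B arrays 1 to 3. SAH-BCL9B 2 lay below all vehicle arrays and the other two treated arrays above them, and the change was 0.13 ± 0.13 (adjusted p = 0.655). It was 0.28 without SAH-BCL9B 2, 0.04 to 0.08 without vehicle 3, SAH-BCL9B 1 or SAH-BCL9B 3, and 0.30 with the ACTB 3' minus 5' difference as a covariate, and passed in none of these (adjusted p from 0.0966 to 0.923 over the alternatives).

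CYCS, which encodes cytochrome c, had probe sets of opposite sign. The brightest, 208905_at, read 13.56, 13.48 and 13.49 in vehicle arrays 1 to 3 and 13.62, 13.55 and 13.74 in SAH-BCL9B arrays 1 to 3, a change of 0.12 ± 0.08 with overlap (limma adjusted p = 0.467). Probe set 229415_at read 7.64, 7.74 and 7.70 in vehicle arrays 1 to 3 and 7.09, 7.42 and 7.34 in SAH-BCL9B arrays 1 to 3. Its treated arrays were all lower, with a change of -0.41 ± 0.10 (adjusted p = 0.0805 among all probe sets); it passed with the filter on low values (0.0399) and with array weights (0.0339), the range over the alternatives being 0.0339 to 0.231. Probe set 244546_at, below the array median, read 6.29, 5.56 and 5.68 in vehicle arrays 1 to 3 and 5.34, 4.76 and 5.47 in SAH-BCL9B arrays 1 to 3. It was also lower in all treated arrays, with its lowest value in SAH-BCL9B 2 and its highest in vehicle 1, and a change of -0.66 ± 0.24 (adjusted p = 0.205). The change was -0.43 without vehicle 1, -0.44 without SAH-BCL9B 2 and -0.37 with the ACTB covariate, and it passed in no alternative (adjusted p from 0.136 to 0.477). Averaging its 3 probe sets gave the gene a change of -0.32, opposite in sign to its brightest one (limma adjusted p = 0.128, range 0.128 to 0.717 over the alternatives).

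XIAP, a direct inhibitor of activated caspases, gave -0.03 ± 0.12 from its brightest probe set, at 11.70, 11.79 and 11.72 in vehicle arrays 1 to 3 and 11.72, 11.47 and 11.93 in SAH-BCL9B arrays 1 to 3. Its 7 probe sets were split, 3 positive and 4 negative. In the 2 with the most negative changes, a single array was low. Probe set 225858_s_at read 10.84, 10.79 and 10.84 in vehicle arrays 1 to 3 and 10.96, 9.91 and 10.96 in SAH-BCL9B arrays 1 to 3, and 225859_at read 9.90, 9.82 and 9.85 in vehicle arrays 1 to 3 and 9.86, 8.84 and 10.06 in SAH-BCL9B arrays 1 to 3. SAH-BCL9B 2 was the lone low array in both, about 1 log2 unit under the rest. Without it the changes were 0.14 and 0.10 in place of -0.21 and -0.27, and with the ACTB 3' minus 5' difference as a covariate 0.15 and 0.13. This was the array with the ACTB difference of 0.74, so the covariate fit is not a separate check from leaving that array out. The part of RNA integrity in these values was not tested. No XIAP probe set passed.

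**Figure D4:**
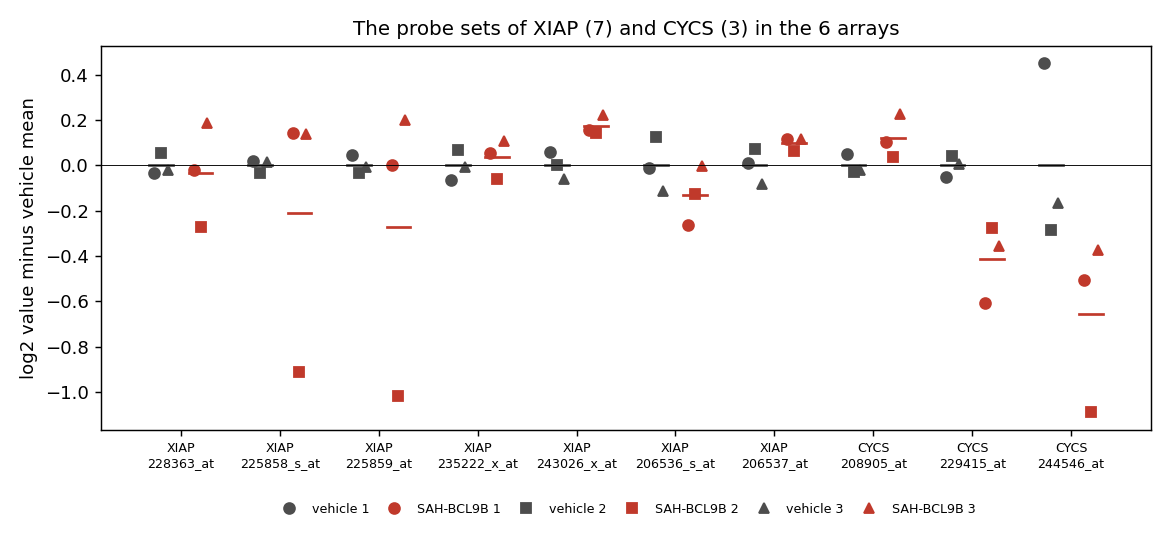
Log2 value minus the vehicle mean of the 7 probe sets of XIAP and the 3 of CYCS in the 6 arrays, grey for vehicle and red for SAH-BCL9B, with bars for group means. SAH-BCL9B 2 (red square) is the lone low array in 225858_s_at and 225859_at, and all treated arrays are low in 229415_at and 244546_at of CYCS.

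Both measured death adaptors were higher in all treated arrays, as were 16.3% of all genes, and neither passed. TRADD, the adaptor of TNF receptor 1, had the lowest adjusted p of the 32 genes. It read 9.94, 10.06 and 10.00 in vehicle arrays 1 to 3 and 10.22, 10.25 and 10.21 in SAH-BCL9B arrays 1 to 3, a change of 0.23 ± 0.07 (SE, limma adjusted p = 0.114). It passed with the filter on low values (adjusted p = 0.044; range 0.044 to 0.713 over the alternatives). Of its other two probe sets, 205641_s_at gave 0.11 and the dim 213443_at gave -0.11, and the mean of the 3 was 0.08. FADD, which recruits caspase-8, read 10.05, 9.94 and 10.03 in vehicle arrays 1 to 3 and 10.18, 10.35 and 10.20 in SAH-BCL9B arrays 1 to 3. Its single probe set gave 0.23 ± 0.08, the most positive change of the 32 (adjusted p = 0.139).

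In all, the groups did not overlap in 9 of the 32 genes (28.1%), 7 with the treated arrays above (MCL1, BAK1, BID, DIABLO, ENDOG, FADD and TRADD) and 2 below (BCL2L1 and BMF). Over all genes the groups did not overlap in 28.3%, 16.3% with the treated arrays above and 12% below, so the share among these genes was that of the array as a whole. At probe set level it was 29 of 93 (31.2%), against 24.2%. Of the 23 genes with more than 1 probe set, 14 had all of them on the same side of 0 and 9 did not.

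**Figure D5:**
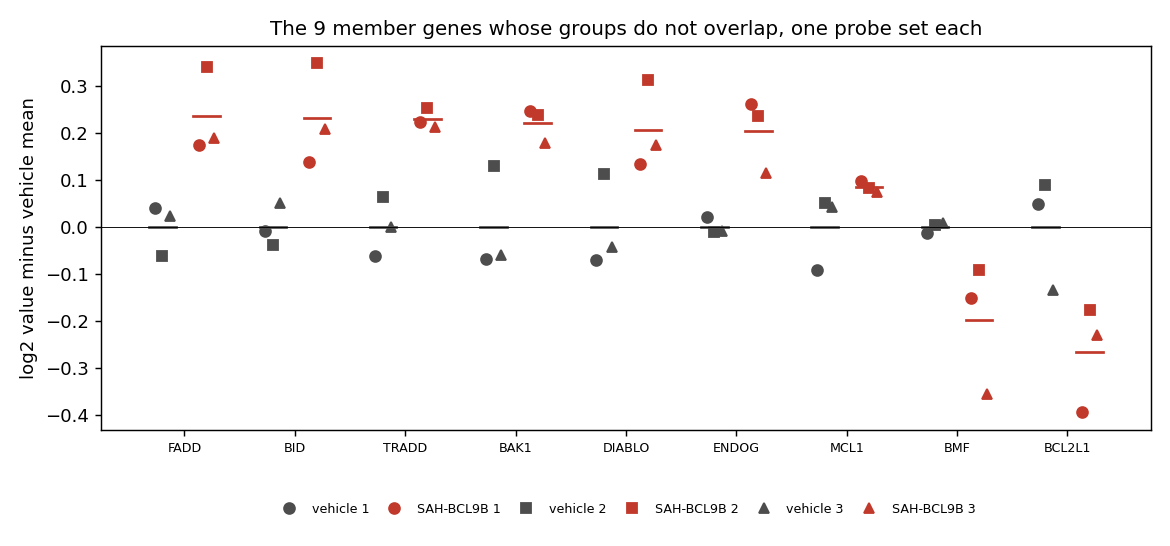
Log2 value minus the vehicle mean in each array for the 9 genes whose vehicle (grey) and SAH-BCL9B (red) arrays do not overlap, ordered by change, with bars for group means. The group means differ by 0.23 or less in the 7 higher genes and by 0.27 or less in the 2 lower ones.

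The other genes of the death pathway were read from a list of 52, of which 47 were measured and the rest were not analysed here. Of the 47, 2 rose and 2 fell (8.51% in all, against 6.93% of all genes), with a median change of 0.05. CYLD, which encodes a deubiquitinase of the TNF receptor complex, rose: it read 8.68, 8.80 and 8.83 in vehicle arrays 1 to 3 and 9.28, 9.38 and 9.14 in SAH-BCL9B arrays 1 to 3, a change of 0.50 ± 0.09 (SE, limma adjusted p = 0.0183). But 4 of its 7 probe sets had changes of the other sign, and averaging all 7 left 0.09 (limma adjusted p = 0.595; range over the alternatives 0.00351 to 0.595). BAG3, a cochaperone of HSP70 with anti-apoptotic activity, rose by 0.37 ± 0.08 (adjusted p = 0.0354), from 11.88 to 12.00 in vehicle to 12.22 to 12.40 in treated arrays.

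BCLAF1, a nuclear protein found through its binding to BCL-2 family members, fell. It read 13.05, 13.04 and 13.04 in vehicle arrays 1 to 3 and 12.69, 12.67 and 12.66 in SAH-BCL9B arrays 1 to 3. The change was -0.37 ± 0.07 (limma adjusted p = 0.0197), with 1 of its 6 probe sets on the other side. Averaging all 6 gave -0.27 and BCLAF1 did not pass (limma adjusted p = 0.24). MLKL, the executioner of necroptosis, fell by 0.32 on the log2 scale (SE 0.07, adjusted p = 0.041), with vehicle values of 9.42 to 9.54 and treated values of 9.12 to 9.17. The groups did not overlap in any of the 4 genes, which were named because they passed, so this is no separate result. Of the 47 genes, 18 had no overlap (38.3%, against 28.3% of all genes). None of the 4 kept its call in every fit with 1 array left out: CYLD passed without vehicle 3, SAH-BCL9B 2 or SAH-BCL9B 3, BCLAF1 without SAH-BCL9B 2, and none did otherwise. With the replicate number as a block none of the 4 passed (lowest adjusted p = 0.0733). The range over the alternatives was 0.0026 to 0.129 for BAG3, 0.000449 to 0.24 for BCLAF1 and 0.0137 to 0.148 for MLKL. Of the 11 death receptor and ligand genes none passed in limma, and 2 had an unadjusted p under 0.05 (18.2%, against 21.4% of all genes). Of the 5 measured IAP genes, relatives of XIAP, likewise none passed and 1 had an unadjusted p under 0.05 (20%).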

How the data were processed

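The values are the authors' deposited log2 expression values for 54675 probe sets on each of 6 arrays. Per the submitters' processing notes they were made with RMA and affy, in versions not given in the sources used. RMA adjusts background, normalizes between arrays and summarises each probe set, which hides a shift common to the whole array and shrinks changes of dim probe sets. Probe sets were named through the platform annotation, with all 32 measured genes matched by Entrez ID to RefSeq. No filter on low values was used. Groups were taken from the sample titles.

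SAH-BCL9B was compared with vehicle in limma 3.58.1 (R 4.3.3; lmFit, then eBayes) without covariates, with Benjamini-Hochberg adjustment over 19775 genes or, separately, over 41091 probe sets. Errors of changes are moderated standard errors. The procedure was tested on simulated data. Alternatives were a replicate block, a filter keeping genes above the median level, the mean or every probe set of a gene, median centring, a second quantile normalization, the variance model, array weights, the ACTB covariate and arrays left out. The genes and lists were chosen with earlier results of these data known. Values in every array were to be given for 9 fixed genes and for genes with a probe set past the threshold or changed by 0.5 or more; the other genes shown so were added after their values were seen. Values were read with data.table (version 1.17.8); matplotlib 3.10.9 (Python 3.11.15) drew the figures.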

Additional observations from a re-analysis of the deposited data

How the results depend on the processing

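No gene of the set passed in 14 of the 16 alternatives; 1 passed with the filter on low values (TRADD) and 1 with array weights (BCL2L1), and 0 passed in each of the 6 fits with 1 array left out. The number whose 95% interval lay within 1.5-fold was 30 to 32, counted after seeing the data, the filter having left 30 genes. A sign turned in at least 1 alternative in 14 genes, none of them past the threshold. Their largest change in the main fit was 0.12 in size, and in the alternatives they reached up to -0.32 (CYCS). The count of all genes called was 296 with the replicate number as a block, 2270 with the filter, 2172 with array weights and 2456 with a robust variance trend, against 1370; with 1 array left out it was 316 to 1426. For the other death pathway genes it was 0 with the block, 8 with the filter, 9 with the trend, and 2 with the mean of probe sets, with every probe set tested by itself, or without vehicle 3 and SAH-BCL9B 2, against 4; with 1 array left out it was 0 to 3. Of the member probe sets, 0 passed with the block, 2 with the filter and 3 with array weights, against 1; with 1 array left out it was 0 to 1. Arrays with the same replicate number did not deviate together (correlations of 0.24, -0.20 and -0.32 across genes), so the number was not taken to pair them. The highest correlation was 0.42, between vehicle 3 and SAH-BCL9B 2. With 3 arrays in each group such correlations cannot decide whether the cultures were paired. Signal over background is unknown, so dim probe sets such as those of BCL2A1 and HRK may hold no signal of their gene.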

Other observations

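Among the genes upstream of caspase-8, chosen here after their values were seen, those for the receptors of the ligand TRAIL had changes of both signs. Of these, TNFRSF10C was not above the array median in every vehicle array. Its groups overlapped, with a change of 0.11 ± 0.11 (limma adjusted p = 0.671), and 3 of its 4 probe sets had the other sign. TNFRSF10B, which encodes the death receptor DR5, read 12.20, 12.27 and 12.23 in vehicle arrays 1 to 3 and 12.05, 11.82 and 11.96 in SAH-BCL9B arrays 1 to 3. All treated arrays were lower, with a change of -0.29 ± 0.08 (SE, limma adjusted p = 0.0845), and 1 of its 4 probe sets had the other sign. It passed with the filter on low values (0.0353) and with a robust variance trend (0.0131; range over the alternatives 0.0131 to 0.91, the highest with the mean of its probe sets, -0.03). TNFRSF10D, which encodes a decoy receptor without a working death domain, read 9.61, 9.46 and 9.47 in vehicle arrays 1 to 3 and 9.22, 9.06 and 9.29 in SAH-BCL9B arrays 1 to 3. It was also lower in all treated arrays, with a change of -0.33 ± 0.09 (adjusted p = 0.0755), and its second probe set had the other sign. It passed with the filter (adjusted p = 0.0326), a second quantile normalization (0.0495), the variance trend (0.0298) and array weights (0.0463), the range over the alternatives being 0.0298 to 0.634, the highest with the mean of its probe sets, -0.12. TNFRSF10A, which encodes the death receptor DR4, read 10.09, 9.99 and 9.95 in vehicle arrays 1 to 3 and 10.43, 9.54 and 10.39 in SAH-BCL9B arrays 1 to 3. SAH-BCL9B 2 lay below all vehicle arrays and the other two treated arrays above them, and the change was 0.11 ± 0.22 (adjusted p = 0.863). Without SAH-BCL9B 2 it was 0.40 and passed (adjusted p = 0.0337; range over the alternatives 0.0337 to 0.97). As for XIAP, the low array was the one with the ACTB 3' minus 5' difference of 0.74. With that difference as a covariate the change was 0.42 (limma adjusted p = 0.0512), which is not a separate check from leaving the array out.

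The genes for the voltage-dependent anion channels, the main pores of the mitochondrial outer membrane, did not pass over all genes. VDAC3 read 13.22, 13.11 and 13.19 in vehicle arrays 1 to 3 and 13.40, 13.44 and 13.41 in SAH-BCL9B arrays 1 to 3. The groups did not overlap, with a change of 0.24 ± 0.07 (limma adjusted p = 0.0928), and all 3 of its probe sets were positive. It passed with the filter on low values (adjusted p = 0.0352) and with a robust variance trend (0.00698; range over the alternatives 0.00698 to 0.269). VDAC2 and VDAC1 gave 0.10 ± 0.07 and 0.01 ± 0.09.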
